A study of Danio rerio with 6 samples.

Results

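The levels of 6 genes that are widely used as constant references in zebrafish expression work were followed through the egg and both gonads. They were the beta-actin genes actb1 (ENSDARG00000037746) and actb2 (ENSDARG00000037870), the translation elongation factor gene eef1a1l1 (ENSDARG00000020850), the glyceraldehyde-3-phosphate dehydrogenase genes gapdh (ENSDARG00000043457) and gapdhs (ENSDARG00000039914), and the ribosomal protein gene rpl13a (ENSDARG00000044093). They were chosen by their identifiers, and all 6 were found among the 32253 features of the table. The question was whether any of them kept a constant level between egg, ovary and testis.

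All fish were adult, wild type and of the TLAB strain, with no treatment named. Whole ovaries were dissected from females, whole testes from males, and mature oocytes were obtained by squeezing; each tissue had 2 libraries. Ages and the number of animals per library are not given in the sources used here, and nothing says that both libraries of a tissue were from separate animals, so p-values measure only the spread between these libraries, which may be technical. A whole ovary contains oocytes beside its somatic cells, so the ovary and oocyte libraries share a cell type. In such bulk samples, fewer cells of a type and less RNA per cell cannot be told apart.

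A reference gene is used to divide out differences in the amount of RNA between samples, and the division is right only if the gene itself does not differ. Beta-actins form the microfilaments of the cell cortex and cytoskeleton. Elongation factor 1 alpha carries aminoacyl-tRNA to the ribosome, and Rpl13a is a protein of the large ribosomal subunit. Gapdh catalyses a step of glycolysis, and in mammals GAPDHS is an isoform of the sperm tail. A cytoskeleton, translation and glycolysis are functions that nearly all cells need, which is why genes for them were taken up as references. An isoform of the sperm tail is not such a general function. A fish egg is loaded with RNA during its growth in the ovary and makes little or none once it is mature.

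Levels are given as FPKM as deposited by the authors, a unit that counts sequenced fragments relative to transcript length and to the size of the library. Of the 32253 features, 13717 had at least 1 FPKM in at least 2 of the 6 libraries and were tested with limma on log2(FPKM + 1). Calls required a Benjamini-Hochberg adjusted p under 0.05 together with a log2 difference of 1 or more in size. All 6 reference genes passed the filter. Summed egg and spermatogenic marker levels followed the tissue labels, with exceptions among single genes. The 7 egg markers summed to between 870 and 4543 FPKM in the oocyte and ovary libraries and to at most 14.4 FPKM in testis, whereas 6 spermatogenic markers summed to at least 218 FPKM in testis and at most 11 elsewhere. The gene bouncer alone gave 1234 and 652 FPKM of the egg sums in oocyte, and 491 and 676 FPKM in ovary. Zp3b fell from 1609 and 2445 FPKM in ovary to 52.7 and 34.4 FPKM in oocyte. Zar1 fell from 1102 and 1172 FPKM to 11.3 and 9.06 FPKM. Gdf9 and buc were also lower in both oocyte libraries than in both ovary libraries, whereas bmp15 and zp2.5 were higher. The egg marker zp2.5 was listed at 0 in both ovary libraries and at 1.49 and 1.2 FPKM in testis, and the spermatogenic marker spata18 was highest in an ovary library. The follicle list was of no use as a check, since only lhcgr and fshr of its 4 genes were matched and both were under 0.1 FPKM in ovary. Connective tissue markers summed to 4.8 and 17.4 FPKM in oocyte, 3 and 5.95 FPKM in ovary, and 24.1 and 25.9 FPKM in testis. Oocyte replicate 2 was thus above both ovary libraries, and whether somatic tissue was in that library was not tested.

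Across the 3 tissues, 5 of the 6 genes differed by more than 4-fold between their highest and lowest tissue means, and eef1a1l1 differed by 1.95-fold. The ratio of the highest to the lowest mean FPKM was 4.22 for rpl13a, 8.55 for actb2, 26.7 for actb1, 60.9 for gapdhs and 113 for gapdh. The range of the 3 tissue means on the log2 scale was 0.96 for eef1a1l1, and 11.9% of the tested features had a smaller one. For rpl13a 51.8% of the features had a smaller range, for actb2 76.9%, for actb1 94.9%, for gapdhs 97.5% and for gapdh 98.8%. The median range of all tested features was 2.05, and 13.2% of them had a range under 1. The 184 most abundant features, whose log2(FPKM + 1) averaged 8 or more, gave much the same picture, with a median range of 2.29 and with 17 features less variable than eef1a1l1. The range of eef1a1l1 was also the smallest of the 6 genes after median-of-ratios scaling (1.05), quantile normalization (0.49) and setting the libraries to a common sum leaving out features above 10000 FPKM (0.63). The range of rpl13a, the next smallest, was 2.40, 2.05 and 2.004 under the same scalings.

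**Figure D1:**
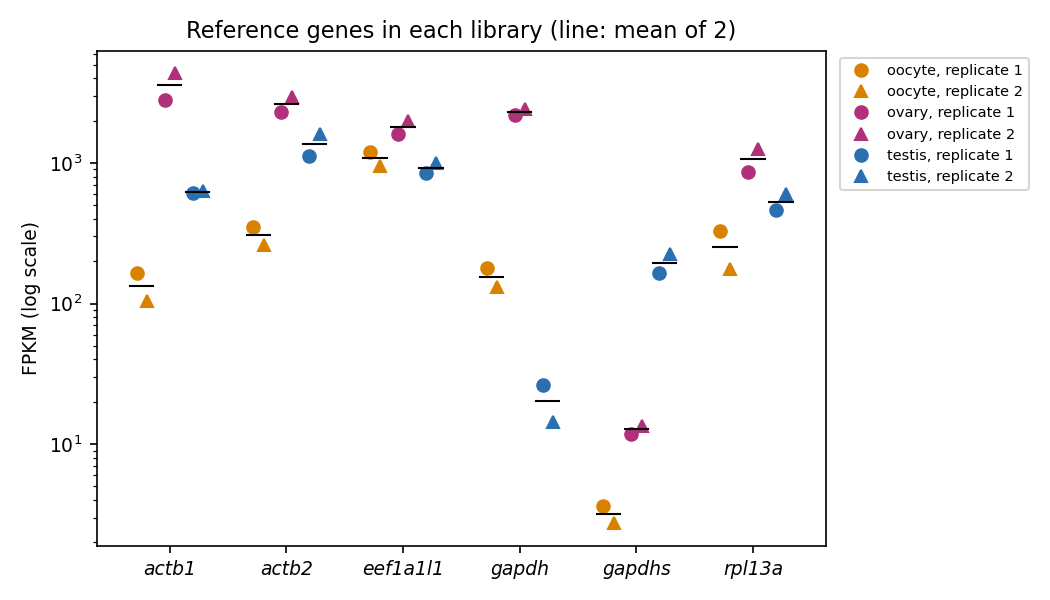
FPKM of the 6 reference genes in each of the 6 libraries on a log axis, coloured by tissue, with a line at the mean of the 2 libraries. Eef1a1l1 lies between 849 and 1980 FPKM in all libraries, whereas gapdh runs from 14.4 FPKM in a testis library to 2423 FPKM in an ovary library.

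The elongation factor gene eef1a1l1 was the least variable of the 6. Its level was 1202 and 956 FPKM in the oocyte libraries, 1611 and 1980 FPKM in the ovary libraries, and 849 and 995 FPKM in the testis libraries. Both ovary libraries were above the other four, and the oocyte and testis libraries overlapped. It also held its place within each library, at rank 70 and 69 among all features in oocyte, 50 and 70 in ovary, and 87 and 86 in testis, where rank 1 is the highest. The log2 difference of oocyte from ovary was -0.74 (SE 0.317, 95% interval -1.51 to 0.04, limma adjusted p = 0.0859). Testis and ovary differed by -0.96 (SE 0.317, interval -1.73 to -0.18, limma adjusted p = 0.032), which missed the size needed for a call, and this difference became 0.22 after median-of-ratios scaling. Between testis and oocyte the difference was -0.22 (interval -0.995 to 0.552, limma adjusted p = 0.539), an interval that does not show the levels to be equal. That difference turned to 1.05 and was called under median-of-ratios scaling (limma adjusted p = 0.0296), and turned to 0.36 without a call when the libraries were set to a common sum.

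The median feature was listed lower in testis, but this did not hold at all levels. Over all 13717 features the median difference was 0.02 for oocyte against ovary, -0.82 for testis against ovary and -0.79 for testis against oocyte. Over the 184 most abundant features it was -0.41 for testis against ovary and 0.72 for testis against oocyte. Median-of-ratios scaling brought the 2 testis medians over all features to -0.02 and 0.03. In the comparison of testis with ovary 27.2% of all calls were higher in testis as deposited, and 54.1% after that scaling. Against oocyte the share went from 32.8% to 53.4%. Nothing in the table says which scale is closer to RNA per cell.

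In the mature oocyte, 5 of the 6 genes were called lower than in whole ovary. Over all features 49% were called in this comparison, 26.8% higher and 22.2% lower. Among the 184 abundant features the share called lower was 46.7%, so a lower level in oocyte was common at high expression. Actb1, actb2, eef1a1l1 and rpl13a are themselves among these 184 features. In testis, 3 of the 6 genes were called against ovary, where 60.2% of all features were called, 16.4% higher and 43.8% lower. Actb1 and gapdh were lower in testis and gapdhs was higher. Against oocyte 5 of the 6 were called, where 67.9% of all features were called, with actb1, actb2, gapdhs and rpl13a higher in testis and gapdh lower. The shares of features called higher and lower in testis against oocyte were 22.3% and 45.6%. Among the 184 abundant features, however, the median difference of testis from oocyte was 0.72. A larger difference in size than that of rpl13a was found in 69% of them, than that of actb2 in 38.6% and than that of actb1 in 32.1%. With 2 libraries a tissue, groups that do not overlap say little, since that held for 81.7% of the tested features for oocyte against ovary. For testis the share was 89.3% against ovary, and 90.3% when oocyte was the other tissue.

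**Figure D2:**
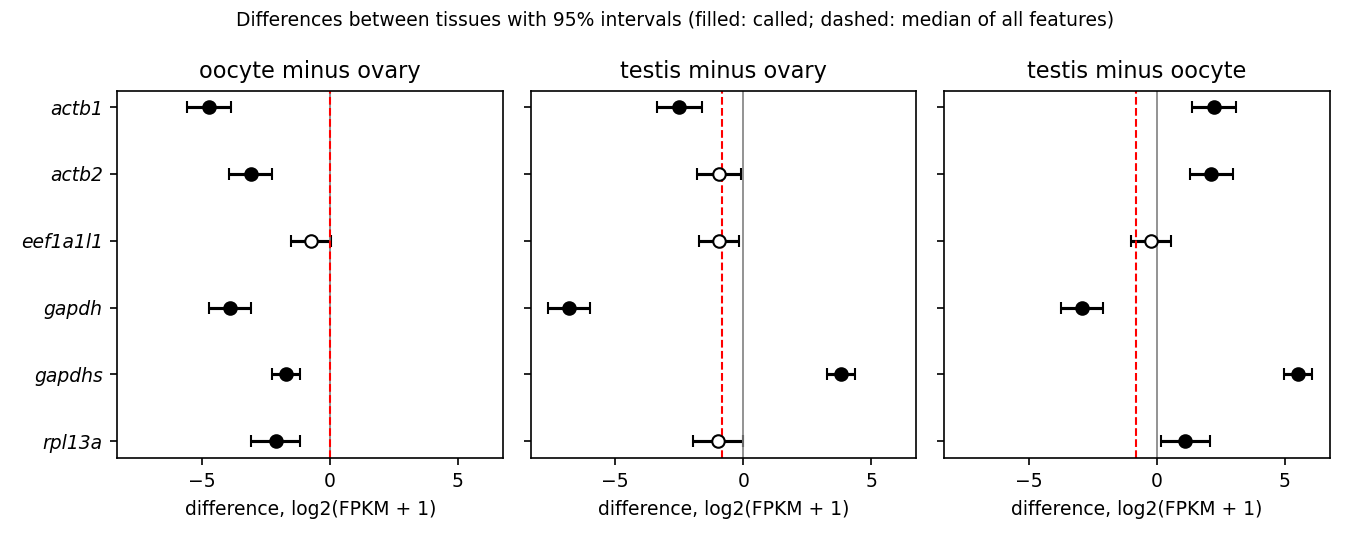
Difference between tissue means of log2(FPKM + 1) for each gene, with 95% intervals from limma over all 6 libraries; filled points were called, and the dashed line is the median of all 13717 features. Actb2, eef1a1l1 and rpl13a lie close to the dashed line at -0.82 in testis minus ovary, and gapdh and gapdhs lie far to either side of it.

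The beta-actin genes were both highest in ovary and lowest in oocyte, but by unequal amounts. Actb1 was at 164 and 104 FPKM in oocyte, 2787 and 4345 FPKM in ovary, and 608 and 628 FPKM in testis. No tissues overlapped, and the gene was at rank 20 in both ovary libraries against rank 534 and 930 in oocyte. The difference of oocyte from ovary was -4.73 on the log2 scale (SE 0.357, limma adjusted p = 0.000199), that of testis from ovary was -2.49 (limma adjusted p = 0.000971), and that of testis from oocyte was 2.24 (limma adjusted p = 0.00132). Only 0.824% of all tested features had a larger difference between oocyte and ovary than actb1 had.

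Actb2 was at 350 and 260.1 FPKM in oocyte, 2286 and 2933 FPKM in ovary, and 1114 and 1605 FPKM in testis. The tissues again did not overlap. Oocyte was lower than ovary by -3.10 (SE 0.348, limma adjusted p = 0.00055) and testis was higher than oocyte by 2.14 (limma adjusted p = 0.00143). Testis and ovary differed by -0.95 (interval -1.80 to -0.10, limma adjusted p = 0.0449), short of the size for a call. That difference was 0.22 after median-of-ratios scaling, and was called at -1.01 after quantile normalization and at -1.22 without testis replicate 2. The genes thus traded places, with actb1 above actb2 in both ovary libraries (1.22 and 1.48 times) and below it in oocyte (0.468 and 0.398 times) and in testis (0.545 and 0.392 times). Both genes encode nearly the same protein. How the authors assigned reads that match both is not given in the sources used here, so the split between them is less certain than either fall from ovary to oocyte.

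Other actins and actin-related genes in the name table, matched by a list of symbols, gave 11 tested genes including actb1 and actb2. Between oocyte and ovary 2 were called higher and 3 lower, with a median difference of -0.43 against 0.02 over all features. Between testis and ovary 2 were higher and 3 lower (median -0.31), and between testis and oocyte 4 were higher and 2 lower (median 0.27). The background for this and each later list is the share of all features called. It was 26.8% higher and 22.2% lower for oocyte against ovary, and 16.4% and 43.8% for testis against ovary. For testis against oocyte it was 22.3% and 45.6%. With median-of-ratios factors, 3 genes were higher in testis and 1 lower relative to ovary, while 7 were higher and 1 lower relative to oocyte. Smooth muscle actin acta2 was at 0.485 and 0.227 FPKM in oocyte, 17.8 and 24.5 FPKM in ovary, and 65.4 and 74.5 FPKM in testis. It rose in testis over ovary by 1.69 and over oocyte by 5.71. ACTL6A, an actin-related subunit of chromatin remodelling complexes, went the other way, with a rise of 1.58 from ovary to oocyte and a difference of -2.87 between testis and oocyte. Actr3, a subunit of the Arp2/3 complex that branches actin filaments, stood out after its values were seen, with 220 and 134 FPKM in oocyte, 173 and 302 FPKM in ovary, 175 and 245 FPKM in testis, and a range of tissue means of 0.41. That range is of the deposited values, and the range of actr3 under the other scalings is not given here. The muscle marker rows summed to between 2.24 and 2.81 FPKM in oocyte, 58.5 and 86.8 FPKM in ovary, and 401 and 698 FPKM in testis. Acta2 is in both lists, and 1 tagln row alone held 328 and 615 FPKM of the testis sums. The part of muscle transcripts in the levels of actb1 and actb2, which were highest in ovary, was not tested.

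The 2 glyceraldehyde-3-phosphate dehydrogenase genes went opposite ways between female and male tissue. Gapdh was at 180 and 131 FPKM in oocyte, 2194 and 2423 FPKM in ovary, and 26.3 and 14.4 FPKM in testis. Ovary was above every other library and testis below every other library, and the gene moved from rank 27 and 47 in ovary to rank 1119 and 2063 in testis. The log2 difference of testis from ovary was -6.81 (SE 0.332, limma adjusted p = 2.17e-05), a change exceeded by 0.882% of the tested features. Oocyte was lower than ovary by -3.90 (limma adjusted p = 0.000249), and testis was lower than oocyte by -2.91 (limma adjusted p = 0.000279).

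Gapdhs was at 3.63 and 2.74 FPKM in oocyte, 11.9 and 13.5 FPKM in ovary, and 165 and 223 FPKM in testis. Both testis libraries were far above the other four, at rank 232 and 234 against rank 4065 or lower. Testis was higher than ovary by 3.82 (SE 0.225, limma adjusted p = 3.56e-05) and higher than oocyte by 5.53 (limma adjusted p = 9.67e-06). Oocyte was lower than ovary by -1.72 (limma adjusted p = 0.00095). Within a library, where a scaling factor cancels, gapdh was 185 and 179 times gapdhs in ovary and 49.7 and 47.8 times in oocyte, and 0.16 and 0.0646 times in testis. The swing between ovary and testis was 10.8 on the log2 scale, the widest of the 15 pairs of the 6 genes. In RefSeq, gapdh is also given as an older name of gapdhs, so primers or probes described as gapdh can refer to either gene.

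The called glycolysis genes were mostly lower in oocyte than in ovary, but went both ways in testis. Of 30 features matched to a list of glycolytic enzymes 21 were tested, gapdh and gapdhs among them. Between oocyte and ovary 1 was called higher and 8 lower, with a median of -0.78 against 0.02 over all features. Between testis and ovary 6 were higher and 11 lower, with a median of -1.14 against -0.82, and between testis and oocyte 8 were higher and 8 lower, with a median of 0.18 against -0.79. After median-of-ratios scaling 8 were higher and 6 lower in testis than in ovary, and 11 higher and 3 lower than in oocyte. The aldolase gene ALDOA fell from 165 and 215 FPKM in ovary to 16 and 11 FPKM in oocyte. Its testis values lay between these, at 58.1 and 67.4 FPKM. ENO4, whose mammalian counterpart is an enolase of sperm, rose from at most 0.195 FPKM in the oocyte and ovary libraries to 18.6 and 13 FPKM in testis. ENO3 was counted as higher in oocyte and testis, but it was listed at 0 in both ovary libraries and no fold is given. Pgam1b, a phosphoglycerate mutase, was lower in testis than in oocyte by -2.57. Of the 6 matched spermatogenic markers, sycp3, tekt1, ropn1l, dmrt1 and tssk6 were each higher in both testis libraries than in every other library, and spata18 was not, with 3.04 and 3.38 FPKM in testis and 7.27 FPKM in ovary replicate 2. Sertoli and Leydig markers summed to 2244 and 3311 FPKM in testis and at most 32.8 FPKM elsewhere. These moved with gapdhs and ENO4, and the part of each cell type was not tested.

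Rpl13a took a middle place. It was at 328 and 176 FPKM in oocyte, 858 and 1265 FPKM in ovary, and 462 and 599 FPKM in testis. The tissues did not overlap, but the oocyte libraries lay nearly 2-fold apart. Oocyte was lower than ovary by -2.11 (SE 0.393, limma adjusted p = 0.00396). Testis was higher than oocyte by 1.13 (interval 0.17 to 2.09, limma adjusted p = 0.0359), and this call was lost at 0.68 without oocyte replicate 2 (limma adjusted p = 0.194), at 0.94 without testis replicate 2, at 1.31 without testis replicate 1, and under the replicate block (limma adjusted p = 0.0655). Testis and ovary differed by -0.99 (interval -1.95 to -0.03, limma adjusted p = 0.0597), which turned to 0.19 under median-of-ratios scaling and 0.08 under quantile normalization.

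Most ribosomal protein genes were, like rpl13a, lower in oocyte than in ovary. Of 78 tested ribosomal protein genes, including rpl13a, 54 were called lower in oocyte than in ovary and 0 higher by limma (61 and 0 at an unadjusted p under 0.05), with a median difference of -1.67 against 0.02 over all features and -1.10 over the 184 abundant ones. Between testis and oocyte limma called 53 higher and 0 lower (57 and 2 at an unadjusted p under 0.05), with a median of 1.44 against -0.79 over all features and 0.72 over the abundant ones. Between testis and ovary 62 were not called, 6 were higher and 10 lower, and the median was -0.12 against -0.82 and -0.41. Ribosomal protein genes were not taken out of the abundant features, so that background is partly made of this list. The split between testis and ovary depended on the scale, being 38 higher and 0 lower in testis by limma after median-of-ratios scaling, 23 and 1 after quantile normalization, and 29 and 2 with a common sum. The split between oocyte and ovary held, with 56, 50 and 54 genes lower and 0, 1 and 0 higher under the same scalings. RPL35A, with 420.1 and 197 FPKM in oocyte, 1974 and 3424 FPKM in ovary and 4233 and 4991 FPKM in testis, had the largest difference in this list between testis and oocyte. RPL19 fell in oocyte by -3.05 and in testis by -1.76 against ovary. RPS9 and RPLP1 rose in testis over ovary by 1.56 and 1.53. The fall of RPL19 in testis was -0.58 and not called after median-of-ratios scaling. Ribosomal protein genes have many near-identical processed copies in mammals, and how shared reads were assigned is not given in the sources used here.

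**Figure D3:**
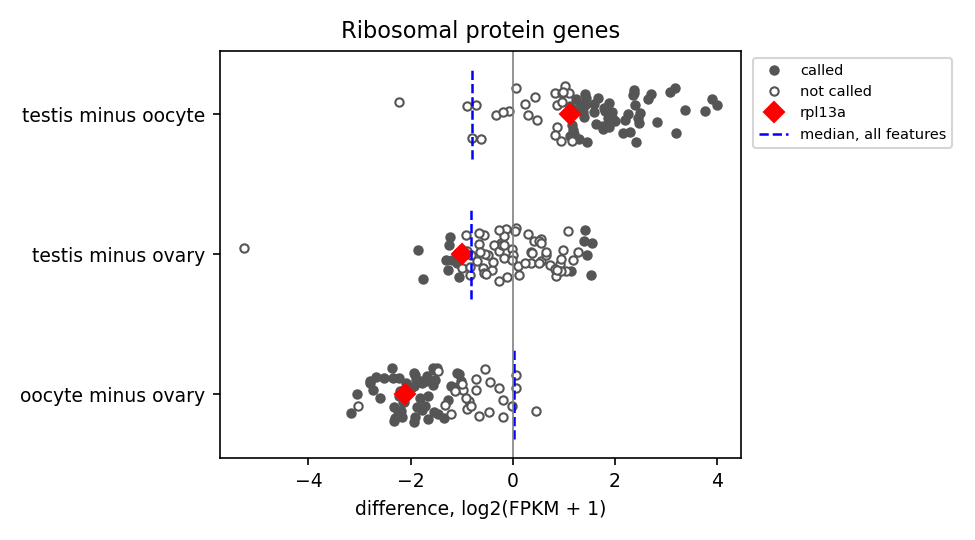
Differences of 78 ribosomal protein genes in log2(FPKM + 1) for the 3 comparisons, 1 point per gene, filled where called, with rpl13a as a diamond and the median of all features as a dashed line. Most points lie left of 0 in oocyte minus ovary and right of 0 in testis minus oocyte, and the isolated point at -5.27 in testis minus ovary is RPLP0, which was listed at 0 in a testis library.

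The genes of elongation factors 1 and 2 ranged from nearly even to strongly different between tissues. Of 10 tested genes for elongation factors 1 and 2, including eef1a1l1, 0 were called higher and 4 lower in oocyte than in ovary by limma (0 and 5 at an unadjusted p under 0.05), with a median of -0.66 against 0.02 over all features. Against ovary, 2 were higher and 4 lower in testis (median -0.78 against -0.82), and against oocyte 3 were higher and 2 lower (median -0.13 against -0.79). The split against ovary was near that of all features, with 16.4% higher and 43.8% lower in testis. After median-of-ratios scaling 4 were higher and 2 lower in testis relative to ovary, and by limma 7 were higher and 0 lower relative to oocyte. EEF1B2, part of the exchange factor that recharges elongation factor 1 alpha with GTP, was at 606 and 402 FPKM in oocyte, 1197 and 1750 FPKM in ovary, and 255 and 181 FPKM in testis. It fell in testis by -2.75 against ovary and by -1.19 against oocyte, the latter being 0.07 and not called after median-of-ratios scaling. EEF1G, another subunit of that factor, fell by -2.04 in oocyte and by -2.26 in testis against ovary, the latter not called after quantile normalization (-0.86). EEF1D went from 6.43 and 4.87 FPKM in oocyte to 57.4 and 58.8 FPKM in testis, a rise of 3.16, while a second gene for the same subunit, eef1da, fell by -1.06 as deposited and was at 0.20 after median-of-ratios scaling and 0.43 after quantile normalization, without a call. Of the 10 genes, 3 had tissue means within 1 log2 unit on the deposited scale. They were eef1a1l1, eef2a.1 (0.99) and a feature named EEF1A1 (ENSDARG00000069951, 0.25). The last was at only 1.3 to 2.4 FPKM and eef2a.1 at 0.848 to 4.18 FPKM, where adding 1 FPKM narrows a log2 range. In RefSeq the gene next to eef1a1l1 on the GRCz12tu assembly is its relative eef1a1l2, which was not matched here, and reads of one could have been counted for the other.

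The order of the 6 genes by mean level differed in each tissue. FPKM is scaled to transcript length, so these levels can be compared roughly between genes. The annotation and the treatment of shared reads are not given, so the order is approximate. In oocyte, eef1a1l1 led with 1079 FPKM ± 174 (SD, n = 2), above actb2 with 305 ± 63.9, rpl13a with 252 ± 107, gapdh with 156 ± 34.8 and actb1 with 134 ± 42.6, and gapdhs was last with 3.18 ± 0.627. The values of actb2 and rpl13a overlapped, as did those of rpl13a and gapdh and those of gapdh and actb1. Within each oocyte library these pairs nevertheless kept their order. Actb2 was 1.07 and 1.48 times rpl13a, gapdh was 0.55 and 0.745 times rpl13a, and actb1 was 0.91 and 0.791 times gapdh. In ovary, actb1 led with 3566 FPKM ± 1102 (SD, n = 2), above actb2 with 2610 ± 457, gapdh with 2308 ± 162, eef1a1l1 with 1796 ± 261, rpl13a with 1062 ± 287 and gapdhs with 12.7 ± 1.17. Actb1 overlapped actb2 there, and actb2 overlapped gapdh. Within each ovary library actb1 was above actb2 (1.22 and 1.48 times) and actb2 above gapdh (1.04 and 1.21 times). In testis, actb2 led with 1359 FPKM ± 347 (SD, n = 2), above eef1a1l1 with 922 ± 104, actb1 with 618 ± 14.7, rpl13a with 530.1 ± 96.8, gapdhs with 194 ± 41.5 and gapdh with 20.4 ± 8.42. Neighbours in the testis order did not overlap within these 2 libraries.

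Ratios between the genes within a library do not depend on any single factor by which that library was scaled, though quantile normalization changes them. With 2 libraries against 2, an exact permutation test cannot go below p = 0.333, so the ratios are given without a test. On the deposited values actb2, eef1a1l1 and rpl13a had overlapping proportions in ovary and testis. Actb2 was 1.42 and 1.48 times eef1a1l1 in ovary and 1.31 and 1.61 times in testis. Eef1a1l1 was 1.88 and 1.57 times rpl13a in ovary and 1.84 and 1.66 times in testis. Actb2 was 2.66 and 2.32 times rpl13a in ovary and 2.41 and 2.68 times in testis. The mean log2 ratios of these 3 pairs differed between the organs by 0.01, 0.03 and 0.03, and their libraries overlapped, whereas the other 12 pairs differed by more than 1 in size. After quantile normalization the 3 genes moved apart, with testis minus ovary at -1.01 for actb2, -0.49 for eef1a1l1 and 0.08 for rpl13a.

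In oocyte the proportions were others. Actb2 was 0.291 and 0.272 times eef1a1l1, and eef1a1l1 was 3.67 and 5.44 times rpl13a, with no overlap with either gonad. Actb2 over rpl13a, at 1.07 and 1.48 times, came nearest to its gonad values. No pair among the 15 had tissue means within 1 log2 unit across all 3 tissues. The closest was actb2 over rpl13a, with a range of 1.02. Averaged over a gene's 5 ratios, the SD of the log2 ratio across the 6 libraries was 1.54 for rpl13a, 1.56 for actb2, 1.85 for actb1, 1.87 for eef1a1l1, 3.15 for gapdhs and 3.21 for gapdh. By this measure eef1a1l1 was not the steadiest. The measure is low for genes that move together, and the other 5 were all called lower in oocyte than in ovary while eef1a1l1 was not. It therefore does not show which gene is constant.

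**Figure D4:**
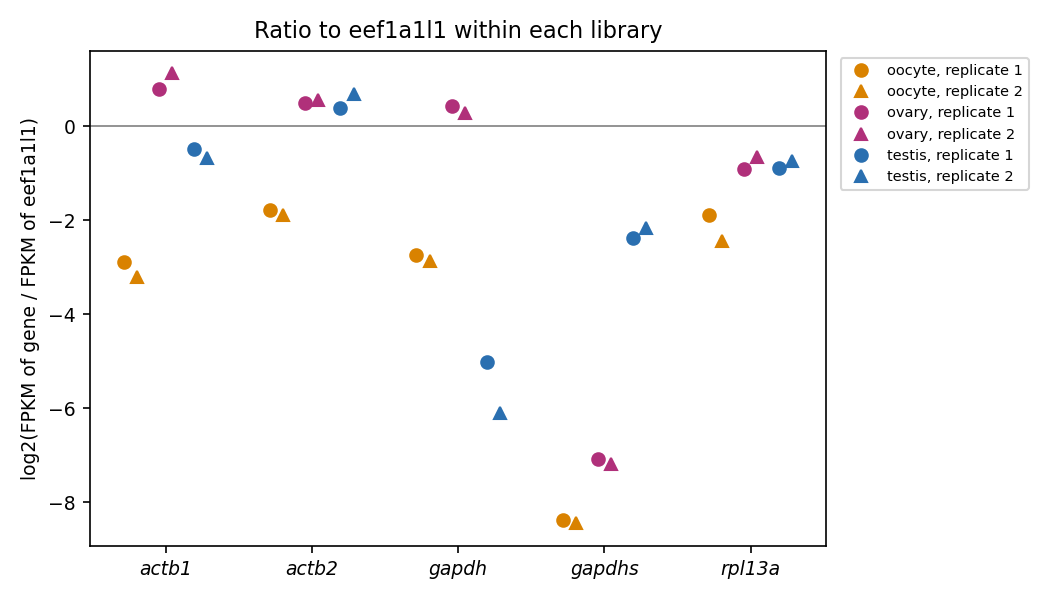
Log2 ratio of the FPKM of each gene to that of eef1a1l1 in the same library, coloured by tissue. The ovary and testis points of actb2 and of rpl13a overlap, the oocyte points of actb1, actb2, gapdh, gapdhs and rpl13a lie below their ovary points, and gapdh is lowest in testis.

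Replicates of a tissue differed in a shared way. In oocyte, replicate 1 had the higher value for all 6 genes. In ovary, replicate 2 had the higher value for all 6, and in testis for 5 of the 6, gapdh being the exception. The same held for abundant features in general. Of the 184 features with a mean log2 of at least 8, 8.7% were higher in oocyte replicate 2, 91.8% in ovary replicate 2 and 77.7% in testis replicate 2, against 54.9%, 52.7% and 41.7% of all tested features. The replicate with the higher values was in each tissue the one of lower estimated depth. Replicate 2 had 1.18, 0.74 and 0.781 times the depth of replicate 1 in oocyte, ovary and testis. These estimates came from the FPKM of low features, so they are not independent of the values compared. They rest on the most common replicate ratio, held by 443 of 2276, 440 of 2386 and 286 of 2606 such features. The part of depth was not tested. The largest gaps between replicates among the reference genes were those of rpl13a in oocyte, at 60.4% of the mean, and of gapdh in testis, at 58.4%. The smallest was that of actb1 in testis, at 3.36%.

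To show what each gene would do as a reference, every library was divided by that gene's level and all 13717 features were tested again. Division shifts each feature's FPKM, on a log2 scale, by the gene's own difference with its sign reversed. The direction of these shifts thus follows from the levels above. Because 1 FPKM is added after the division, low features shift by less on the tested scale, and the medians move by less than the gene's difference. Division by gapdh gave 13002 features higher and 112 lower in testis than in ovary, so that 95.6% of the tested features were called. The median difference went from -0.82 as deposited to 3.95, and it was 5.26 after the division with a pseudocount of 0.1. Division by gapdhs gave 264 higher and 10732 lower in the same comparison, with a median of -2.74, and with a pseudocount of 0.1 it gave 760 higher and 11703 lower with a median of -4.42. The deposited values gave 2251 higher and 6011 lower. Division by actb2, eef1a1l1 or rpl13a gave medians of -0.12, -0.16 and -0.12, with 49.9%, 48.9% and 57% of the calls higher in testis. With the filter of 5 FPKM the shares were 37.7%, 36.3% and 41.6% and the medians -0.41, -0.47 and -0.42, so the balance depended on the filter, and the side of the majority changed for rpl13a. With a pseudocount of 0.1 the medians were -0.22, -0.23 and -0.19. Actb1 gave 5008 higher and 587 lower.

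For oocyte against ovary, each reference moved the balance upward, which follows from the lower level of all 6 genes in oocyte than in ovary. Higher levels in oocyte made up 54.7% of calls as deposited, 73.6% with eef1a1l1, 89.7% with gapdhs, 93% with rpl13a, 97.3% with actb2, 99.2% with gapdh and 99.6% with actb1. The median difference went from 0.02 to 0.45 with eef1a1l1 and to 3.36 with actb1. The eef1a1l1 median was 0.68 with a pseudocount of 0.1 and 0.81 with the filter of 5 FPKM, and that of actb1 was 4.37 and 4.30. For testis against oocyte, 32.8% of calls were higher in testis as deposited. The share was 36.4% with eef1a1l1, 20.8% with rpl13a, 14.2% with actb1, 13.8% with actb2, 1.5% with gapdhs and 82.3% with gapdh. The majority of calls was thus higher in oocyte than in ovary with every reference and as deposited, and lower in testis than in oocyte with every reference other than gapdh. In testis against ovary the majority also changed sides with the choice among the 6 genes. It was higher with actb1, gapdh and rpl13a, and lower with actb2, eef1a1l1 and gapdhs, though nearly even with actb2 and eef1a1l1.

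**Figure D5:**
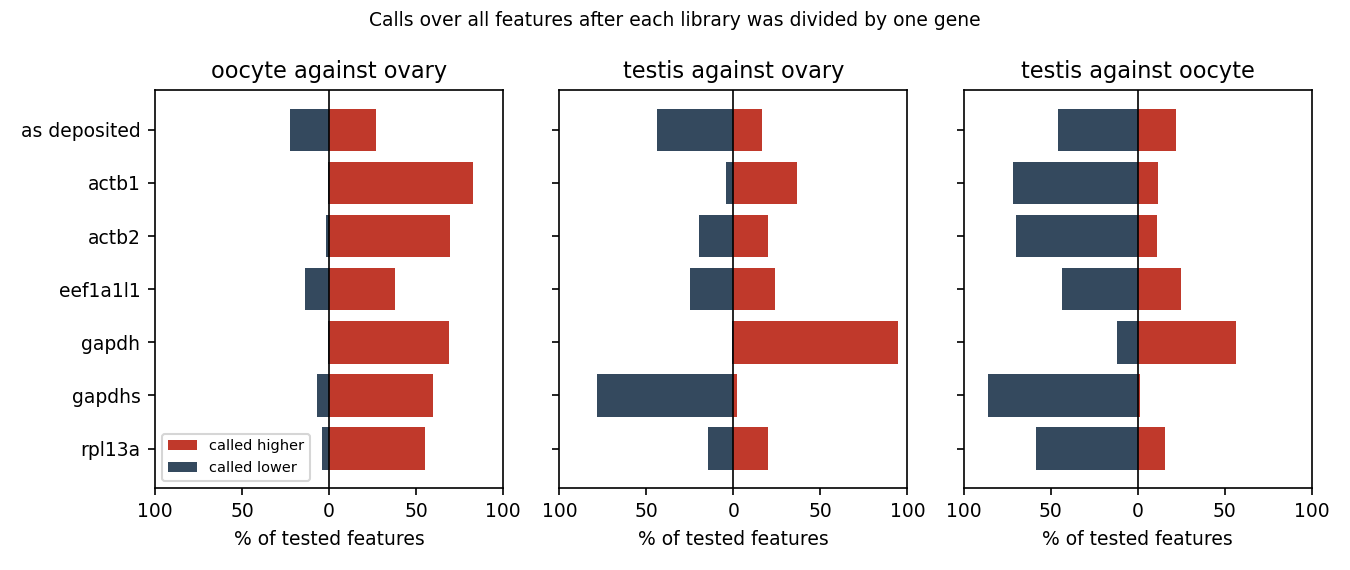
Share of the 13717 tested features called higher (right) or lower (left) in each comparison, as deposited and after division of every library by one reference gene. With gapdh nearly all calls of testis against ovary are higher and with gapdhs nearly all are lower, and every gene shifts oocyte against ovary to the right of the deposited values.

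Other genes that serve as zebrafish references were examined through a list that gave 27 tested genes, 5 of which are ribosomal protein genes and also in that list. Between oocyte and ovary 6 were called higher and 9 lower (median 0.07 against 0.02 over all features), between testis and ovary 2 were higher and 11 lower (median -0.86 against -0.82), and between testis and oocyte 7 were higher and 10 lower (median -0.59 against -0.79). The 11 of 27 lower in testis than in ovary were near the 43.8% of all features called lower there. After median-of-ratios scaling 6 were higher and 3 lower in testis than in ovary, and 11 higher and 6 lower than in oocyte. The peptidyl-prolyl isomerase gene ppiab fell from 1515 and 2345 FPKM in ovary to 128 and 52.2 FPKM in oocyte. Tubb2b, a beta-tubulin gene, fell by -4.17 in the same comparison. HPRT1, a purine salvage enzyme, rose from ovary to oocyte by 2.23. B2m, the light chain of class I histocompatibility molecules, was at 69.7 and 73 FPKM in testis and at most 5.9 FPKM in the other libraries. TBP, the TATA-binding protein of general transcription, fell in testis by -2.49 against ovary and by -2.96 against oocyte. SDHA, a subunit of succinate dehydrogenase, fell in testis against ovary by -2.23.

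Of these 27 genes, 3 had tissue means within 1 log2 unit on the deposited scale, where 13.2% of all tested features did. They are named after their values were seen, and their ranges under the other scalings are not given here. RPS18 was at 596 and 465 FPKM in oocyte, 397 and 635 FPKM in ovary, and 625 and 821 FPKM in testis, with a range of 0.51. UBE2A, a ubiquitin-conjugating enzyme, was at 21.6 and 31.7 FPKM in oocyte, 24 and 27.6 FPKM in ovary, and 13.7 and 13.5 FPKM in testis, with a range of 0.9. XPO1, a nuclear export receptor, had a range of 0.62 at levels of 3.54 to 9.51 FPKM. The ovary libraries of RPS18 overlapped those of both other tissues, and its testis libraries were above its oocyte libraries. RPLP0, another common reference, was listed at 0 in testis replicate 1 and at 5051 FPKM in testis replicate 2, so its testis value can be a failed estimate.

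Each of the 6 genes was compared with the 2 features whose pattern over the 6 libraries lay nearest, by Euclidean distance of log2(FPKM + 1) centred on each feature's own mean. These are descriptions over 6 libraries that share their scaling. For eef1a1l1 they were TRIM3 (distance 0.2) at only 0.605 to 2.74 FPKM, and HIF1A (0.203) at 11.7 to 25.6 FPKM. For rpl13a SLC10A7 (0.268) is given, for actb2 they were DHX34 (0.27) and SCO1 (0.303), and for actb1 MRPL57 (0.269) and CYBRD1 (0.453). Gapdh was nearest to SCARB1 (0.669), with 558 and 688 FPKM in ovary and 3.33 and 2.48 FPKM in testis, and to zpcx (0.968), with 224 and 247 FPKM in ovary and 0.382 and 0.268 FPKM in testis. Gapdhs was nearest to NRM (0.506) and zgc:194114 (0.512). In oocyte, DHX34 was at 0.832 and 0.484 FPKM and MRPL57 at 2.07 and 1.1 FPKM. NRM and zgc:194114 were at most 0.554 FPKM there. Adding 1 FPKM shrinks the log2 changes of features this low, so their nearness depends partly on it. Among the 6 themselves the closest patterns were those of actb2 and rpl13a (1.21), and the farthest were those of gapdh and gapdhs (11.3).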

How the data were processed

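The 6 libraries held whole ovary, mature oocyte and whole testis, 2 of each. TRIzol RNA, cleared of DNA, was, per the labels' protocols, made into strand-specific libraries with the Illumina TruSeq RNA kit for paired reads of 76 bases. That kit usually selects polyadenylated RNA; whether it did here is not given in the sources used here, and levels would then depend on tail length as well as amount. The authors deposited one FPKM value per feature and library. The submitters' processing notes name TopHat, Bowtie2, Cuffnorm and the GRCz10 build, with no versions; the annotation, scaling and treatment of shared reads are not given in the sources used here. Gene names came from a table that held 26411 of the 32253 identifiers, partly under human symbols; no coordinates and no sequences are printed.

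Values were transformed to log2(FPKM + 1). Features with at least 1 FPKM in at least 2 libraries (13717) were fitted with limma 3.58.1 in R 4.3.3, with a mean per tissue over all 6 libraries and eBayes with trend=TRUE. Tests were two-sided with Benjamini-Hochberg adjustment over all features. Folds are ratios of mean FPKM. Log2 differences understate the change of low features. For division by a gene, each library was divided by that gene's FPKM and multiplied by its geometric mean over the 6 libraries. The fit was tested on simulated data. A list symbol also matched without its final paralog letter a or b, a step added because the name table gives many genes under human symbols.

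The FPKM of a library summed to between 7062000 (ovary replicate 1) and 178200000 (oocyte replicate 1). Absolute depth is not given, so no counting error is stated. From features of few reads, replicate 2 had 1.18 (oocyte), 0.74 (ovary) and 0.781 (testis) times the depth of replicate 1. The number of libraries limits the precision.

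Named are all 6 genes, the 2 nearest patterns of each, and in each list up to 2 called genes per direction and comparison with the largest difference, apart from a few that are not reported here. The members and lists were chosen with earlier results of these data known. The alternatives changed the scaling (median-of-ratios factors, quantiles, a common sum leaving out features above 10000 FPKM), the pseudocount (0.1), the filter (none, or 5 FPKM), the variance model (trend=FALSE) and the samples (the compared tissues alone, each library left out), or added a replicate block, as numbered or crossed for oocyte. Ranges of tissue means under other scalings, and gene lists under them, were added after the data were seen.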

Additional observations from a re-analysis of the deposited data

How the results depend on the processing

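For the 6 genes and the counts of calls, 455 of 480 combinations of a result and an alternative matched the reported result and 25 did not. A match meant the same direction and side of the threshold for a difference, or a count within 1.5 times. For a range of tissue means it meant a move of less than 1 SD between replicates (the largest of the 3 tissues). Some matches were fixed in advance, so the share overstates robustness. Leaving out a testis library left the ranges of actb1, actb2 and rpl13a unchanged. The filter, variance model and replicate block change p-values but not the differences, so one under 1 in size stays uncalled. Median-of-ratios scaling turned testis minus ovary to 0.22 for actb2, 0.22 for eef1a1l1 and 0.19 for rpl13a, and testis minus oocyte of eef1a1l1 to 1.05. By its construction that scaling removes most of the median shift of the testis values. Quantile normalization turned rpl13a in testis minus ovary to 0.084, and a common sum turned eef1a1l1 in testis minus oocyte to 0.36. After division by gapdh, testis against oocyte gave 6102 calls with the filter of 5 FPKM against 9400, since fewer features were tested. Without a filter, rpl13a lost its call in testis against oocyte (limma adjusted p = 0.0954). For gapdh, gapdhs and actb1, every difference had its reported direction and call under all 16 alternatives. By the margin above, the ranges of gapdh and gapdhs moved under every scaling, and that of rpl13a under none. The range of eef1a1l1 moved under quantile normalization and a common sum, and those of actb1 and actb2 under quantile normalization only. These scalings of the ranges were chosen after the data were seen, and eef1a1l1 stayed the smallest of the 6. With a pseudocount of 0.1 the range of gapdhs moved from 5.53 to 5.88. Which scale is closer to RNA per cell was not tested.

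Replicate numbers are shared between tissues, but the differences of replicate 2 from replicate 1 had correlations across features of -0.346 (oocyte with ovary), 0.243 (ovary with testis) and -0.214 (oocyte with testis), so the numbers were not taken as pairs. The replicate block gave 5 called genes for oocyte against ovary, 3 for testis against ovary and 4 for testis against oocyte, where the fit without it gave 5, 3 and 5. It gave 6679, 8217 and 9273 called features in that order, against 6716, 8262 and 9311. Numbers crossed for oocyte gave 5, 3 and 5 genes. A library left out leaves 1 in its tissue, which is then assumed to vary like the others.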
